A study of Homo sapiens with 6 samples.

Results

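The genes described here make up the machinery that transcribes transfer RNA (tRNA) genes and turns the transcripts into mature tRNA. The set holds 45 genes out of the 58870 in the table of RNA sequencing counts, chosen by symbol from knowledge of the pathway: subunits of RNA polymerase III and its transcription factors, the proteins of RNase P, the tRNA splicing endonuclease and ligase, enzymes of the 3′ end, export receptors and the tRNA-cleaving ribonuclease ANG. The choice by symbol used no measured value, although it was made with results of these data known. All 45 were found in the table and all 45 passed the filter on low counts.

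The cells were HEK-293T, a transformed line that derives from human embryonic kidney. Their total RNA was sequenced after removal of ribosomal RNA. The 3 wild-type libraries (WT, genotype Thumpd+/+) were set against 3 libraries of cells without THUMPD1 (THUMPD1 KO, genotype Thumpd-/-). THUMPD1 is the adaptor that brings the acetyltransferase NAT10 to tRNA for leucine and serine, where it makes N4-acetylcytidine, and the comparison asks how the transcriptome differs when this modification is lost. The KO cells were edited with CRISPR-Cas9 and grown from a sorted single cell, so differences due to THUMPD1 loss and differences particular to that clone cannot be told apart. Both genotypes were grown in the same medium with no treatment, and the labels do not say whether the replicates came from separate cultures, so p values measure the spread between these libraries.

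RNA polymerase III makes the short RNAs of the translation machinery, tRNA above all. At tRNA genes TFIIIC binds promoter elements inside the gene and recruits TFIIIB, which positions the polymerase, whereas at genes such as the RNase P RNA gene the promoter lies upstream and is read by the snRNA-activating complex with a TFIIIB that holds BRF2. The primary transcript loses its 5′ leader to RNase P and its 3′ trailer to ELAC2, receives the CCA end from TRNT1, is spliced if it has an intron, and leaves the nucleus with the export receptor XPOT. The values here describe the mRNAs of this machinery, and tRNA itself was not counted.

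Total expected counts were 32225646 to 44099898 per library, and a level in CPM is the number of counts per 1000000 of that total. A level of 1 CPM thus corresponded to 32.2 to 44.1 read pairs. THUMPD1 itself was at 77.3, 84.6 and 80.8 CPM in WT replicates 1, 2 and 3 and at 10.2, 12.0 and 11.0 CPM in the KO replicates, so each library carried the level that its label calls for (log2 fold change −2.87, adjusted p = 3.17e-08). Of 6 genes listed as markers of the HEK-293T line all were detected, with summed levels of 429.8 to 467 CPM in WT and 358 to 415 CPM in KO. Single markers moved in both directions. NEFM had a mean of 35.3 CPM in WT and 5.33 CPM in KO, and KRT18 39.3 and 27.6 CPM. VIM (305 and 279 CPM), which made up most of the sum, and KRT8 (5.86 and 4.84 CPM) were lower too. NEFL (55.5 and 68.9 CPM) and PAX2 (2.32 and 3.77 CPM) were higher in KO. PAX2, the renal marker among them, was at 1.84 to 4.63 CPM over the libraries. Among genes that define adult kidney, UMOD, AQP2 and SLC34A1 were at 0 in every library, and NPHS1 and SLC12A1 reached at most 0.0680 and 0.0454 CPM. Blood cell markers summed to 1.18 to 1.44 CPM and fibroblast markers to 11.8 to 20.3 CPM, the latter mostly COL1A1, with HBB and COL1A2 at 0 in every library. Whether the lower sum of the line markers in KO, or the differences of single markers, have a part in the results was not tested.

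Fold changes are given on the log2 scale as KO against WT with the standard error (SE) of the limma-voom fit to all genes, and a gene is called changed where the p value, adjusted by the Benjamini-Hochberg method over the 15088 genes tested, was under 0.05. By this rule 13 of the 45 genes changed, 5 higher and 8 lower in KO, which is 28.9% of the set. Among all genes tested 26.7% changed (13.7% higher and 13.0% lower), so the set as a whole held about as many changed genes as the transcriptome. Its median log2 fold change of 0.024 was also close to the median of all genes, 0.016, and its median absolute log2 fold change of 0.13 equaled that of all genes. Without adjustment 20 members had a p under 0.05, against 39.2% of all genes. In 21 of the 45 genes (46.7%) the CPM values of the genotypes did not overlap, against 42.2% of all genes. The log2 fold change lay within 0.5 in 43 of the 45 genes.

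Libraries with the same replicate number deviated together, though weakly (correlations of 0.137 to 0.220), so the numbers were taken to pair the libraries. WT replicate 2 with KO replicate 3 (0.0849) and WT replicate 3 with KO replicate 2 (0.0648) were positive too. Replicates 2 and 3 are thus less clearly paired than replicate 1. With the replicate number as a block in the fit 18 members changed, 9 in each direction, against 35.1% of all genes (18.4% higher and 16.7% lower). The 13 genes stayed called with the block in the same direction, and GTF3C3, BDP1, POP1, POP4 and RPP21 joined them. Of the 13, 8 were called under each of 17 alternative settings (RPP25, POLR3K, XPOT, RTCB, GTF3A, POLR3C, RPP30 and ELAC1). The other 5 (POLR3B, POLR3D, POLR3E, POLR3G and RPP14) lost the call in at least 2 of them, in particular when single libraries were left out, and their range of adjusted p is given with each. The plot of fold changes by role shows RPP25 far below the others.

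**Figure D1:**
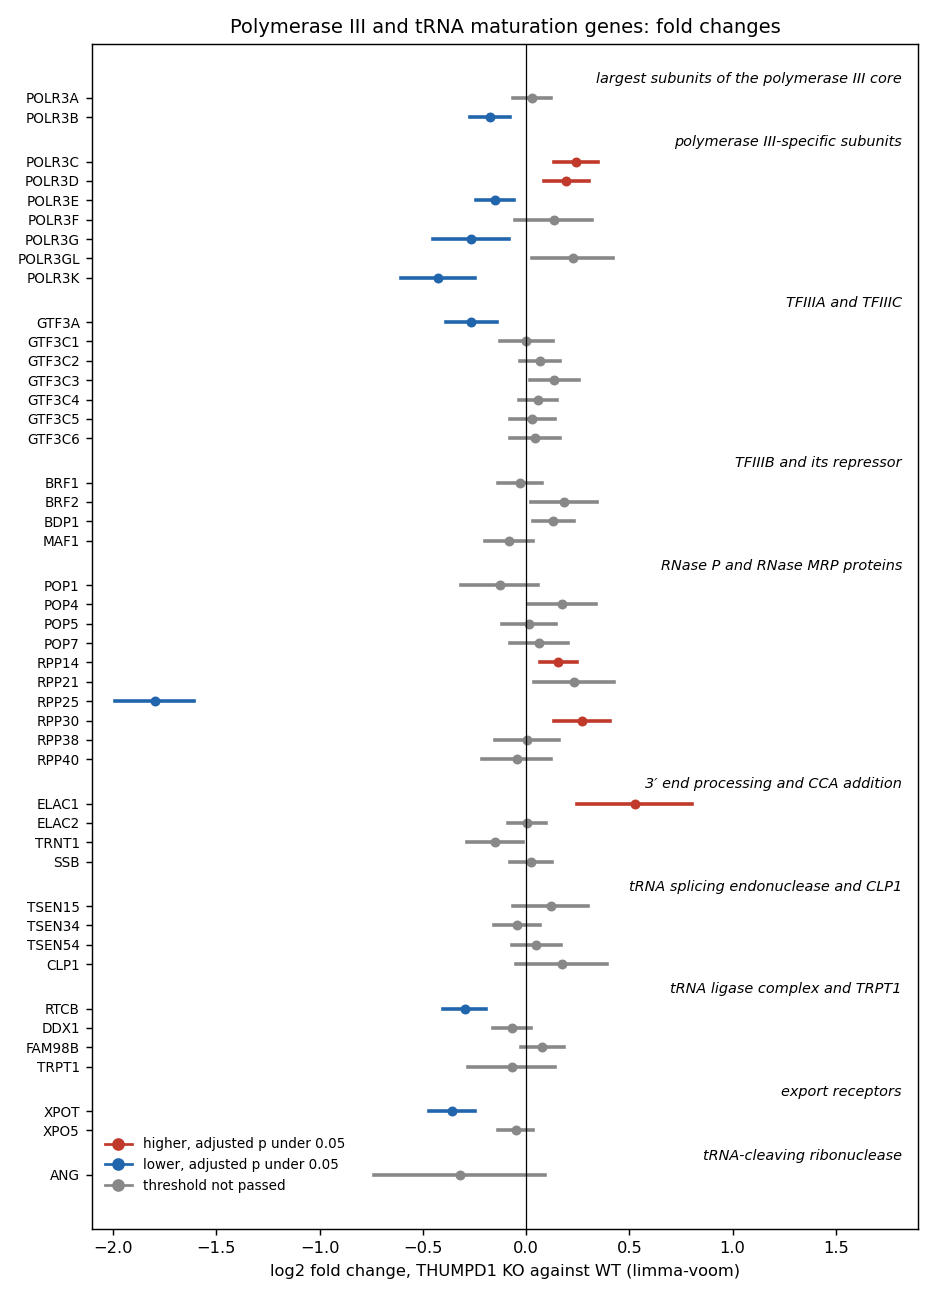
Log2 fold change of each of the 45 genes, THUMPD1 KO against WT, with its 95% confidence interval from the limma-voom fit, grouped by role (3 libraries per genotype). Red and blue mark the 5 higher and 8 lower genes with an adjusted p under 0.05. RPP25 lies at −1.80 and ELAC1 at 0.53, and the other 43 genes lie between −0.43 and 0.27.

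The largest change in the set was that of RPP25, which codes for a protein of RNase P and of the related RNase MRP, where it binds the RNA subunit together with POP7. RPP25 (ENSG00000178718.6, chromosome 15, 74954418 to 74956772, minus strand, GRCh38) was at 30.7, 32.2 and 34.3 CPM in WT and at 10.6, 8.57 and 8.72 CPM in KO. The highest KO library lay far below the lowest WT library. The mean fell from 32.4 ± 1.82 to 9.29 ± 1.12 CPM (SD, n = 3 each), to 28.7% of WT (log2 fold change −1.80, SE 0.086, adjusted p = 3.99e-07). Over the 17 alternatives the log2 fold change stayed between −1.88 and −1.72. By size of fold change RPP25 was number 85 of the 15088 genes tested, and number 53 among those lower in KO. In RNA from a whole culture, a lower level in all cells and loss of the transcript from part of the cells cannot be told apart.

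RPP25 is transcribed from the minus strand and stands head to head with SCAMP5, a secretory carrier membrane protein gene of the plus strand (chromosome 15, 74957219 to 75021495). Only 446 bases separate the 2 annotated genes, and SCAMP5 was looked at after the RPP25 value had been seen. SCAMP5 was at 10.5, 9.45 and 7.40 CPM in WT and at 17.2, 12.6 and 13.2 CPM in KO. It thus moved the other way, with every KO library above every WT library (log2 fold change 0.64, SE 0.13, adjusted p = 0.00433). The next tested genes on either side, COX5A (0.014, adjusted p = 0.853) and PPCDC (0.19, adjusted p = 0.05355), did not pass the threshold. The 93 tested genes within 5 Mb of RPP25 had a median log2 fold change of 0.025, and none of them was as low as RPP25.

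The stretch toward SCAMP5 is shown for this reason, as the 250 bases before the RPP25 start, together with the same window for ELAC1, the gene with the largest rise. Such windows were found for 38 of the 45 members. They are from RefSeq (GRCh38.p14), read 5′ to 3′ on the strand of the gene, and capitals mark CpG dinucleotides. RefSeq places the ELAC1 start downstream of the GENCODE start given for the gene here, so the end of its window lies inside the gene as GENCODE annotates it.
RPP25 promoter (chr15:74956773-74957022, minus strand): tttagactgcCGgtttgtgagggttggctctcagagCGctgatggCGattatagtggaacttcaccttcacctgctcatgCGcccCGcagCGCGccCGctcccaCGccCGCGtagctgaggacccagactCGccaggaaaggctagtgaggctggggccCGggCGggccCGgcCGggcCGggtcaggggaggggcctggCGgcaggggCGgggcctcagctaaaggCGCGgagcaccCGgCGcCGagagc
ELAC1 promoter (chr18:50967790-50968039, plus strand): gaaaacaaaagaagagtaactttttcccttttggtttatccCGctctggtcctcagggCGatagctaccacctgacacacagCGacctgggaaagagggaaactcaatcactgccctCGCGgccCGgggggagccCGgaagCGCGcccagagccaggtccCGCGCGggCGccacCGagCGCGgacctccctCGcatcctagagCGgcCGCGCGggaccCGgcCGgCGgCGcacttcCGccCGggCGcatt
The RPP25 window holds 24 CpG dinucleotides and the ELAC1 window 28. Over the 10872 tested genes with such a window the median was 21, and over the 38 members with one it was 20.5, so both windows were somewhat above the middle of expressed genes. DNA methylation was not measured in these libraries.

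Letter patterns of 6 known factors or elements were searched in the same windows on both strands, and no pattern contains another. The GC box GGGCGG was in 25 of 38 member windows (65.8%) and in 68.0% of the windows of tested genes. The NRF1 pattern was in 9 member windows (23.7%), those of RPP14, XPO5, POP7, RPP38, GTF3A, POLR3K, GTF3C1, POP4 and RTCB, and in 10.6% of tested windows. The ETS pattern CCGGAAG was in 9 (23.7%, against 16% of tested windows), the E box CACGTG in 6 (15.8%, against 8.98%) and the CRE pattern TGACGTCA in 3 (7.89%, against 3.00%). Such matches describe the letters of the windows and do not show that a factor binds there. Of the genes with the NRF1 pattern, RPP14 rose, GTF3A, POLR3K and RTCB fell, and the other 5 did not pass the threshold.

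RPP25 has a paralog, RPP25L, which is not among the 45 genes. RPP25L (ENSG00000164967.10, chromosome 9, 34610486 to 34612104, minus strand) was at 25.4, 23.1 and 24.8 CPM in WT and 21.8, 20.5 and 21.4 CPM in KO. It was lower too, though by far less (log2 fold change −0.19, SE 0.060, adjusted p = 0.0344), and this call was lost in 8 of 17 alternatives (adjusted p 0.0173 to 0.193). Per kilobase of exon, the ratio of RPP25 to RPP25L was 0.561, 0.647 and 0.641 in WT against 0.225, 0.193 and 0.189 in KO. On the log2 scale the ratio dropped by 1.61, and the groups did not overlap. An exact two-sided permutation test of this ratio gave p = 0.1, the lowest that a design of this size can reach. Adjusted over 4 pairs of paralogs it was 0.1. This pair was not among the paralog pairs planned, and the fall of RPP25 by itself sets the genotypes apart in the ratio. The test thus adds nothing to the RPP25 value.

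Of the other 9 listed proteins of RNase P and RNase MRP, 2 rose and none was called lower in the fit without the block. Among all genes tested 13.7% were called higher and 13.0% lower, and the shares were not compared by a test. RNase P removes the 5′ leader of tRNA precursors, and RNase MRP, which shares most of its proteins, acts on ribosomal RNA precursors. RPP30, a core protein of both, was at 36.7, 41.5 and 36.6 CPM in WT and 46.7, 47.1 and 44.3 CPM in KO. It rose to 120.4% of WT (log2 fold change 0.27, SE 0.061, adjusted p = 0.00789), with every KO library above every WT library. RPP14, a small subunit, was at 86.9, 87.8 and 89.1 CPM in WT and 101, 95.9 and 99.2 CPM in KO. It rose to 112% of WT (log2 fold change 0.16, SE 0.041, adjusted p = 0.0172), a call that was lost without WT replicate 2, without KO replicate 3 and after removal of the GC content and length trend (range 0.00807 to 0.0597). RPP14 shares 41.8% of its exon bases with HTD2, a mitochondrial fatty acid synthesis gene read from the same strand, so the division of reads between them is uncertain.

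In 3 more RNase P genes the call changed with the replicate block. RPP21, which contacts the catalytic RNA, was at 14.0, 17.1 and 15.6 CPM in WT and at 17.8, 18.0 and 18.1 CPM in KO (log2 fold change 0.23, adjusted p = 0.0729, with the block 0.0277). POP4 was at 27.9, 31.3 and 33.3 CPM in WT and 33.8, 35.9 and 33.8 CPM in KO (0.17, 0.108, with the block 0.0418), and for both genes all KO libraries were above all WT libraries. POP1, the largest protein of the complex, was at 55.1, 65.2 and 58.2 CPM in WT and 50.3, 60.4 and 51.7 CPM in KO. Its genotypes overlapped, but within each replicate number the KO library was the lower one (−0.13, 0.289, with the block 0.0319). POP5 (0.013), POP7 (0.063), RPP38 (0.0042) and RPP40 (−0.045) did not pass the threshold with or without the block, and their 95% intervals lay between −0.21 and 0.20. POP7 was called as higher with the block after removal of the GC content and length trend (0.15, adjusted p = 0.0474).

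The RNA subunits of these enzymes were counted too. RPPH1, the RNA of RNase P, was at 7257, 9201 and 9306 CPM in WT and 8023, 8856 and 8859 CPM in KO, with overlapping genotypes (log2 fold change 0.095, SE 0.068, adjusted p = 0.331). Its exon lies within another annotated gene, so its count is uncertain. After removal of the GC content and length trend, with or without the block, RPPH1 was called as higher, and over the 17 alternatives its log2 fold change reached 0.26 and its adjusted p went down to 0.0190. RMRP, the RNA of RNase MRP, has 2 entries in the table, which together were at 3863, 3986 and 3747 CPM in WT and 3250, 3610 and 3417 CPM in KO. For the current entry the log2 fold change was −0.20 (SE 0.045, adjusted p = 0.00881), but after removal of the GC content and length trend it was −0.036 (adjusted p = 0.666).

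RNA polymerase III itself differed subunit by subunit. Of its 9 listed subunits, 6 changed, POLR3C and POLR3D higher and POLR3B, POLR3E, POLR3G and POLR3K lower. Among all genes tested 26.7% changed, and the shares were not compared by a test. POLR3B, POLR3D, POLR3E and POLR3G lost the call in some of the fits that left out a library. POLR3A and POLR3B form the active center. POLR3A was at 124, 127 and 131 CPM in WT and 128, 135 and 134 CPM in KO and did not pass the threshold (log2 fold change 0.030, 95% interval −0.063 to 0.12). POLR3B was at 68.3, 67.0 and 67.1 CPM in WT and 60.1, 60.5 and 57.8 CPM in KO, with all KO libraries below all WT libraries. It fell to 88.1% of WT (log2 fold change −0.17, SE 0.043, adjusted p = 0.0131), and the call was lost without WT replicate 3 and without KO replicate 3 (range 0.00139 to 0.0555).

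POLR3C, POLR3F and POLR3G or its paralog POLR3GL form a subcomplex that acts in initiation. POLR3C (ENSG00000186141.9, chromosome 1, 145824053 to 145844402, plus strand) was at 47.8, 46.8 and 46.6 CPM in WT and 58.5, 55.5 and 53.3 CPM in KO. It rose to 118% of WT (log2 fold change 0.24, SE 0.048, adjusted p = 0.00412), with every KO library above every WT library. RNF115, which shares 0.356% of the POLR3C exon bases on the opposite strand, rose as well (log2 fold change 0.22, SE 0.046, adjusted p = 0.00504). The 88 tested genes within 5 Mb of POLR3C had a median log2 fold change of 0.049. Whether the locus has a part in the POLR3C value was not tested. POLR3F was at 21.7, 25.1 and 24.2 CPM in WT and 24.0, 26.8 and 26.6 CPM in KO, with overlap and no call (log2 fold change 0.13, adjusted p = 0.266).

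POLR3G and POLR3GL are alternative subunits, the former known for high levels in undifferentiated and transformed cells. POLR3G was at 38.4, 46.5 and 47.5 CPM in WT and 35.4, 37.4 and 36.8 CPM in KO. It fell to 82.8% of WT (log2 fold change −0.27, SE 0.084, adjusted p = 0.0375), but WT replicate 1 lay close to the KO libraries, and the call was lost in 5 of 6 fits that left out a library and with no CPM filter (range 0.000492 to 0.128). With the replicate block the adjusted p was 0.00364. POLR3GL was at 9.21, 7.53 and 8.99 CPM in WT and 10.2, 9.68 and 10.3 CPM in KO. It had no call in any of the 17 alternatives (log2 fold change 0.23, SE 0.089, adjusted p = 0.084), although all KO libraries were above all WT libraries.

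Per kilobase of exon, WT libraries held 1.88, 2.78 and 2.38 times as much POLR3G as POLR3GL, and KO libraries 1.56, 1.74 and 1.61 times as much. The ratio was thus lower in every KO library than in any WT library, by 0.50 on the log2 scale (SD of the log2 ratio 0.29 in WT and 0.080 in KO). The exact two-sided permutation p was 0.1, again the smallest possible. POLR3G remained the more abundant of the pair in both genotypes, as the plot of paralog ratios shows.

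**Figure D2:**
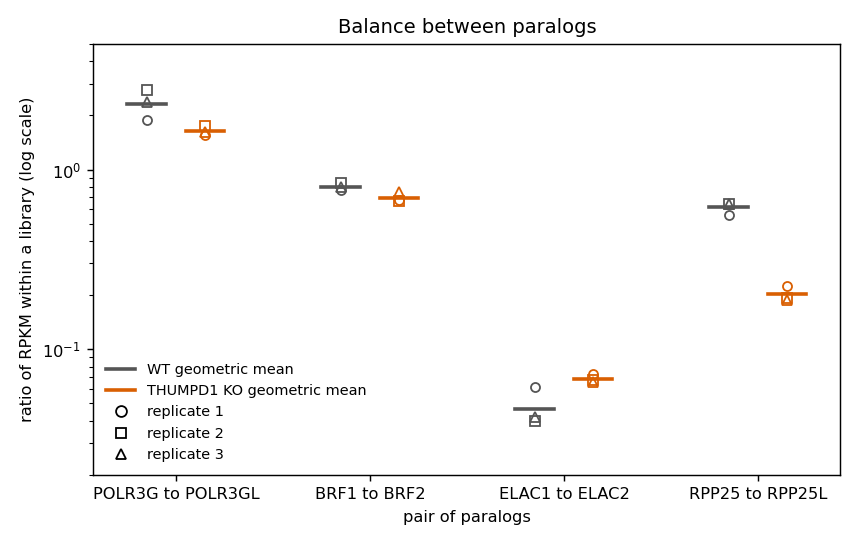
Ratio of RPKM (CPM per kilobase of exon) between paralogs within each library, on a log axis. Gray marks are WT and orange marks THUMPD1 KO libraries, with a marker shape per replicate number and a bar at the geometric mean. In all 4 pairs the 3 KO ratios lie on one side of the 3 WT ratios, with the widest gap for RPP25 to RPP25L (0.615 in WT and 0.202 in KO). RPP25, POLR3G and ELAC1 were themselves called changed. Among single genes tested the CPM values did not overlap in 42.2%, and no such share was computed for ratios.

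POLR3D and POLR3E form a pair that resembles the initiation factor TFIIF of RNA polymerase II. They moved in opposite directions. POLR3D was at 38.9, 37.5 and 38.1 CPM in WT and 44.3, 41.9 and 45.4 CPM in KO and rose to 115% of WT (log2 fold change 0.19, SE 0.050, adjusted p = 0.0149, range 0.00354 to 0.0622). The call was lost without WT replicate 2 and without KO replicate 3. POLR3E was at 111, 108 and 106 CPM in WT and 96.3, 97.6 and 101 CPM in KO and fell to 90.9% of WT (log2 fold change −0.15, SE 0.042, adjusted p = 0.0235, range 0.013 to 0.13). Its call was lost in 4 of 6 fits that left out a library and after removal of the GC content and length trend, where the log2 fold change was −0.087 (adjusted p = 0.1295). POLR3K, a small subunit that takes part in termination and transcript cleavage, was at 34.2, 39.7 and 38.5 CPM in WT and 25.7, 29.4 and 28.0 CPM in KO. It fell to 74.0% of WT (log2 fold change −0.43, SE 0.081, adjusted p = 0.00334), with a clear gap between genotypes.

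Position in the genome moved with some of these values. POLR3K (chromosome 16, 46407 to 53608, minus strand) lies near the end of the short arm of chromosome 16, where the 163 tested genes within 5 Mb had a median log2 fold change of −0.39, against −0.43 for POLR3K itself, and 58.9% of them were higher than POLR3K. POLR3E (chromosome 16, 22297375 to 22335101, plus strand), on the same chromosome as THUMPD1, had −0.15 among 68 neighbors with a median of −0.16. RTCB, on chromosome 22, had −0.30 among 77 neighbors with a median of −0.35. For these 3 genes the fall was close to the median of the genes around them, and the part of the region in their values was not tested. GTF3C1, the 4th member on these chromosomes, lies where the neighbors had a median of −0.011 and had no call (0.00065). On chromosomes 16 and 22 together, 52.4% of 1101 tested genes changed, 101 higher and 476 lower. On the other chromosomes 10 of 41 members changed (24.4%), 5 in each direction, against 24.7% of 13914 genes. For the other 10 changed members the median of the neighbors lay between −0.014 and 0.10, as the plot against neighboring genes shows. The highest was that of the 53 neighbors of POLR3D, which itself had 0.19, and the part of the region was not tested.

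**Figure D3:**
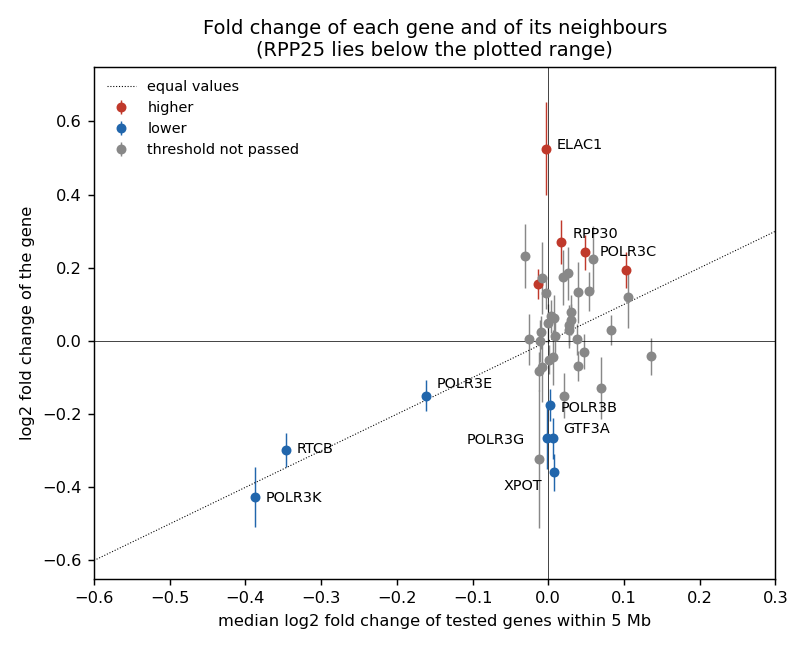
Log2 fold change of each gene (vertical axis, with SE) against the median log2 fold change of the tested genes within 5 Mb on either side (horizontal axis). The dotted line marks equal values, and RPP25 (−1.80, neighbors 0.025) lies below the plotted range. POLR3K, RTCB and POLR3E lie on the left near the line. The other changed genes lie above or below neighbors whose median was between −0.014 and 0.10, the highest for POLR3D.

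Of the listed transcription factor genes, GTF3A was called in the limma-voom fit with genotype alone. GTF3A codes for TFIIIA, which is needed for the ribosomal RNA gene transcribed by polymerase III and not for tRNA genes. It was at 84.1, 96.3 and 93.3 CPM in WT and 78.5, 75.8 and 74.8 CPM in KO (ENSG00000122034.15, chromosome 13, 27424619 to 27435823, plus strand). GTF3A fell to 83.7% of WT (log2 fold change −0.27, SE 0.056, adjusted p = 0.0056) and was called under each of the 17 alternatives. None of the 6 genes of TFIIIC, the factor that recognizes tRNA promoters, was called in the fit without the block. Their log2 fold changes lay between 0.00065 (GTF3C1) and 0.14 (GTF3C3), all positive, with 95% intervals between −0.13 and 0.25. GTF3C3 was at 84.8, 78.9 and 75.1 CPM in WT and 89.5, 91.0 and 83.5 CPM in KO and passed the threshold with the block (adjusted p = 0.027, without it 0.0836), with sample quality weights (0.0161) and without WT replicate 1 (0.0206). GTF3C1, the largest subunit, was at 297, 290.2 and 306 CPM in WT and 276, 314 and 330.4 CPM in KO, and its sign depended on the setting.

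TFIIIB is assembled from TBP, BDP1 and either BRF1 or BRF2. BDP1 was at 231, 239 and 233 CPM in WT and 247, 274 and 257 CPM in KO. All KO libraries were above all WT libraries, and the value lay just outside the threshold (log2 fold change 0.13, SE 0.045, adjusted p = 0.051) and inside it with the block (0.0168), with library sizes alone (0.0393), with sample quality weights (0.0177) and without KO replicate 1 (0.0260). BRF1, which serves tRNA genes, was at 49.9, 46.9 and 47.3 CPM in WT and 48.0, 45.2 and 48.7 CPM in KO, with overlap (log2 fold change −0.030, 95% interval −0.14 to 0.077). BRF2, which serves upstream promoters, was at 13.6, 11.6 and 12.4 CPM in WT and 14.9, 14.1 and 13.7 CPM in KO (0.18, adjusted p = 0.083), without overlap. BRF2 was called as higher with sample quality weights (0.0384) and after removal of the GC content and length trend (0.04905, with the block as well 0.0374). The ratio of BRF1 to BRF2 per kilobase was 0.804 in WT and 0.696 in KO (geometric means, log2 difference −0.21, exact permutation p = 0.1). BRF2 shares 60.0% of its exon bases with ADGRA2 on the opposite strand, which was lower in KO without passing the threshold (−0.22), and no source says whether strand was used in counting.

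MAF1, the repressor through which nutrient and stress signals shut off polymerase III, was at 60.6, 59.7 and 63.3 CPM in WT and 55.5, 56.4 and 61.2 CPM in KO. The genotypes overlapped and none of the 17 alternatives called it (log2 fold change −0.083, 95% interval −0.20 to 0.035). MAF1 is regulated mainly by phosphorylation, which RNA levels do not show.

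At the 3′ end of the precursor, ELAC1 had the largest rise of the set. ELAC1 (ENSG00000141642.9, chromosome 18, 50967991 to 50988121, plus strand) is the short form of RNase Z, known for repair of tRNA after cleavage, while the long form ELAC2 removes the 3′ trailer of new transcripts. ELAC1 was at 4.58, 3.14 and 3.21 CPM in WT and 5.56, 5.42 and 5.28 CPM in KO. The KO libraries lay close together and above all WT libraries, of which replicate 1 was the highest. The mean rose from 3.65 ± 0.810 to 5.42 ± 0.138 CPM (SD, n = 3 each), to 149% of WT (log2 fold change 0.53, SE 0.13, adjusted p = 0.0112), and the log2 fold change lay between 0.45 and 0.66 over the alternatives. Of the genes next to it, ME2 fell (−0.15, adjusted p = 0.0311) and SMAD4 did not pass the threshold (−0.0027). ELAC2 was at 131, 139.6 and 136 CPM in WT and 135, 142 and 141 CPM in KO, with overlap (log2 fold change 0.0046, 95% interval −0.088 to 0.10). Per kilobase, ELAC1 stood at 0.0615, 0.0397 and 0.0417 of the ELAC2 level in WT and at 0.0726, 0.0671 and 0.0660 of it in KO, so ELAC2 was by far the more abundant form in both genotypes.

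TRNT1 adds the CCA end on which every tRNA is charged. It was at 35.2, 32.8 and 35.2 CPM in WT and 30.4, 32.7 and 29.7 CPM in KO. All KO libraries were below all WT libraries, by a narrow margin, and the call was not made (log2 fold change −0.15, SE 0.061, adjusted p = 0.0938). It was made by edgeR (0.0498), with sample quality weights (0.0495) and after removal of the GC content and length trend (0.018, with the block as well 0.0135). SSB, the La protein that protects the 3′ end of new polymerase III transcripts, was at 202, 221 and 219 CPM in WT and 221, 222 and 213 CPM in KO and did not pass the threshold (log2 fold change 0.024, 95% interval −0.076 to 0.12).

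Among the tRNA splicing genes the ligase RTCB was called in the fit with genotype alone, and none of the endonuclease genes was. The listed endonuclease genes TSEN15 (0.12), TSEN34 (−0.042) and TSEN54 (0.048), and CLP1 (0.17), an RNA kinase bound to the endonuclease, had no call, with 95% intervals between −0.15 and 0.39. TSEN15 was called as higher without WT replicate 1 (0.22, adjusted p = 0.0278), and CLP1 with the block after removal of the GC content and length trend (0.17, adjusted p = 0.0458). RTCB, the ligase that joins the exons and also splices XBP1 mRNA in the unfolded protein response, was at 102, 106 and 104 CPM in WT and 82.5, 89.2 and 83.2 CPM in KO. It fell to 82.0% of WT (log2 fold change −0.30, SE 0.047, adjusted p = 0.00109), and the KO libraries were all below the WT libraries. Neither of its listed partners in the ligase complex was called, with or without the block. DDX1, a helicase, was at 192, 195 and 201 CPM in WT and 187, 195 and 183 CPM in KO (log2 fold change −0.069, adjusted p = 0.251), and it was called as lower after removal of the GC content and length trend (0.0386). FAM98B was at 70.2, 74.0 and 74.3 CPM in WT and 75.3, 78.4 and 77.7 CPM in KO (0.078, adjusted p = 0.246). TRPT1, which belongs to the other ligation pathway, had −0.071 with overlapping genotypes.

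The export receptor XPOT had the smallest adjusted p after RPP25. XPOT carries mature tRNA out of the nucleus, and its gene is a known target of the stress factor ATF4. XPOT (ENSG00000184575.12, chromosome 12, 64404392 to 64451125, plus strand) was at 461, 417 and 429 CPM in WT and 358, 345 and 332 CPM in KO. The mean fell from 436 ± 22.7 to 345 ± 13.1 CPM (SD, n = 3 each), to 79.2% of WT (log2 fold change −0.36, SE 0.051, adjusted p = 5.84e-04). It was also the member with the highest CPM in both genotypes. The 38 tested genes within 5 Mb had a median log2 fold change of 0.0075, and TBK1, which starts 0.965 kb away, had −0.14 (adjusted p = 0.161). The window before the XPOT start is shown with the GC box and ETS patterns in capitals.
XPOT promoter (chr12:64404142-64404391, plus strand): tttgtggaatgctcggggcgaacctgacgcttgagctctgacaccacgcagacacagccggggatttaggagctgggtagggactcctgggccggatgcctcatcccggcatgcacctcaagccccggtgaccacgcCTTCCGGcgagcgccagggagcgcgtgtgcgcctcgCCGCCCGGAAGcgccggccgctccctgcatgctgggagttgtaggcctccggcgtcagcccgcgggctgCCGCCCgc
The core pattern of ATF4 sites, TGATGNAA, was in none of the 38 member windows and in 1.26% of tested windows, which says only that these letters are not in those 250 bases. XPO5, which exports microRNA precursors and some tRNA, was at 188, 186 and 189 CPM in WT and 178, 182 and 186 CPM in KO and had no call in any of the 17 alternatives (log2 fold change −0.051, 95% interval −0.14 to 0.035).

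ANG, the secreted ribonuclease angiogenin that cuts tRNA in the anticodon loop under stress, was near the filter. It was at 1.35, 1.47 and 1.65 CPM in WT and 1.50, 1.15 and 1.25 CPM in KO, which is 40.3 to 61.3 read pairs per library. It did not pass the threshold in any of the 17 alternatives (log2 fold change −0.32, 95% interval −0.74 to 0.091, adjusted p = 0.229, range 0.0506 to 0.627). ANG shares a promoter region and 20.3% of its exon bases with RNASE4. RNH1, the cytosolic inhibitor of angiogenin, was at 51.2, 52.7 and 53.6 CPM in WT and 45.9, 46.3 and 49.3 CPM in KO and fell to 89.9% of WT (log2 fold change −0.16, SE 0.052, adjusted p = 0.0452). The RNH1 call was lost in 7 of 17 alternatives (range 0.0126 to 0.215).

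**Figure D4:**
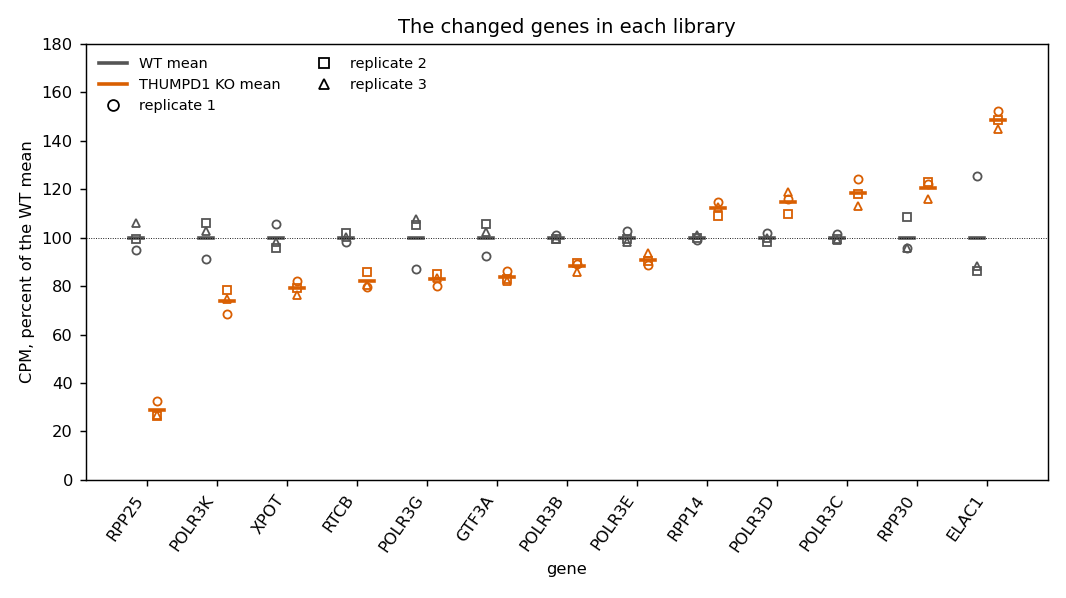
CPM of the 13 changed genes in each library, as percent of the WT mean of the gene, ordered by fold change. Gray marks are WT and orange marks THUMPD1 KO libraries, with a marker shape per replicate number and bars at the means. The KO libraries of RPP25 have a mean of 28.7% of WT, those of ELAC1 a mean of 149%, and in each gene the KO marks lie on one side of the WT marks.

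In all 13 changed genes the genotypes did not overlap, as the plot of single libraries shows, which the choice by p value favors. Leaving out RPP25 and ELAC1, the KO means were 74.0% to 120.4% of WT. The spread between libraries was low, with a median coefficient of variation of 4.30% in WT and 3.79% in KO over the 45 genes. The widest spread was that of ELAC1 in WT, at 22.2%, where replicate 1 was the highest library.

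Other genes of the pathway were listed by role as well, 29 in all, and 8 of them changed (27.6%), 3 higher and 5 lower. This share was close to that of all genes tested, 26.7% (13.7% higher and 13.0% lower). Of the polymerase III subunits outside the set, POLR2F, shared by the nuclear polymerases, was lower (log2 fold change −0.29, SE 0.052, adjusted p = 0.00212). It lies on chromosome 22, where its neighbors had a median of −0.32. POLR2E, another shared subunit, was higher (log2 fold change 0.20, SE 0.042, adjusted p = 0.00592), and CRCP (0.056), POLR1C (0.039), POLR1D (0.017), POLR2H (−0.048), POLR2K (0.17) and POLR2L (−0.0079) were not called. With the block POLR2K was called (adjusted p = 0.0417).

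None of the 8 genes for TBP, the snRNA-activating complex and its activators was called, with log2 fold changes between −0.15 (SNAPC2) and 0.11 (TBP). SNAPC4 (0.084) was called as higher after removal of the GC content and length trend, with or without the block, and over the 17 alternatives its log2 fold change reached 0.18 and its adjusted p went down to 0.00639. In the ligase complex RTRAF, which binds FAM98B, was at 100.3, 105 and 107 CPM in WT and 122, 122 and 119 CPM in KO and rose (log2 fold change 0.20, SE 0.043, adjusted p = 0.00584), opposite to RTCB. ZBTB8OS, the archease that keeps RTCB active, rose as well (log2 fold change 0.18, SE 0.059, adjusted p = 0.0423), a call that 13 of 17 alternatives did not make (range 0.0286 to 0.181). The mitochondrial RNase P proteins PRORP (0.010), TRMT10C (0.052) and HSD17B10 (−0.020) were not called. ANGEL2, which acts on tRNA ends left by cleavage, was called with the block (log2 fold change 0.13, adjusted p = 0.0725, with the block 0.0323), with sample quality weights and without WT replicate 1.

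The levels of the members, compared per kilobase of exon (RPKM), covered a wide range. In WT the highest were GTF3C6 at 72.3 ± 3.20 RPKM, POP7 at 66.4 ± 5.21 RPKM and XPOT at 59.5 ± 3.11 RPKM (SD, n = 3), and the median over the 45 genes was 10.9 RPKM. The lowest were TRNT1 at 2.37 ± 0.0968 RPKM, ANG at 1.03 ± 0.104 RPKM and ELAC1 at 0.918 ± 0.204 RPKM. GTF3C6 and POP7 did not differ beyond their spread, nor did POP7 and XPOT or ANG and ELAC1. Within polymerase III the small POLR3K (20.0 ± 1.56 RPKM) was the highest and POLR3F (3.50 ± 0.263 RPKM) the lowest of the listed subunits, and within RNase P POP7 was the highest and POP4 (7.15 ± 0.633 RPKM) the lowest. RPP25 was number 19 in the WT order, at 13.8 ± 0.772 RPKM, and at 3.94 RPKM in KO it was below all other RNase P proteins. Lengths are those of all annotated exons of a gene, so a gene with long rarely used exons appears lower than its transcripts are.

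**Figure D5:**
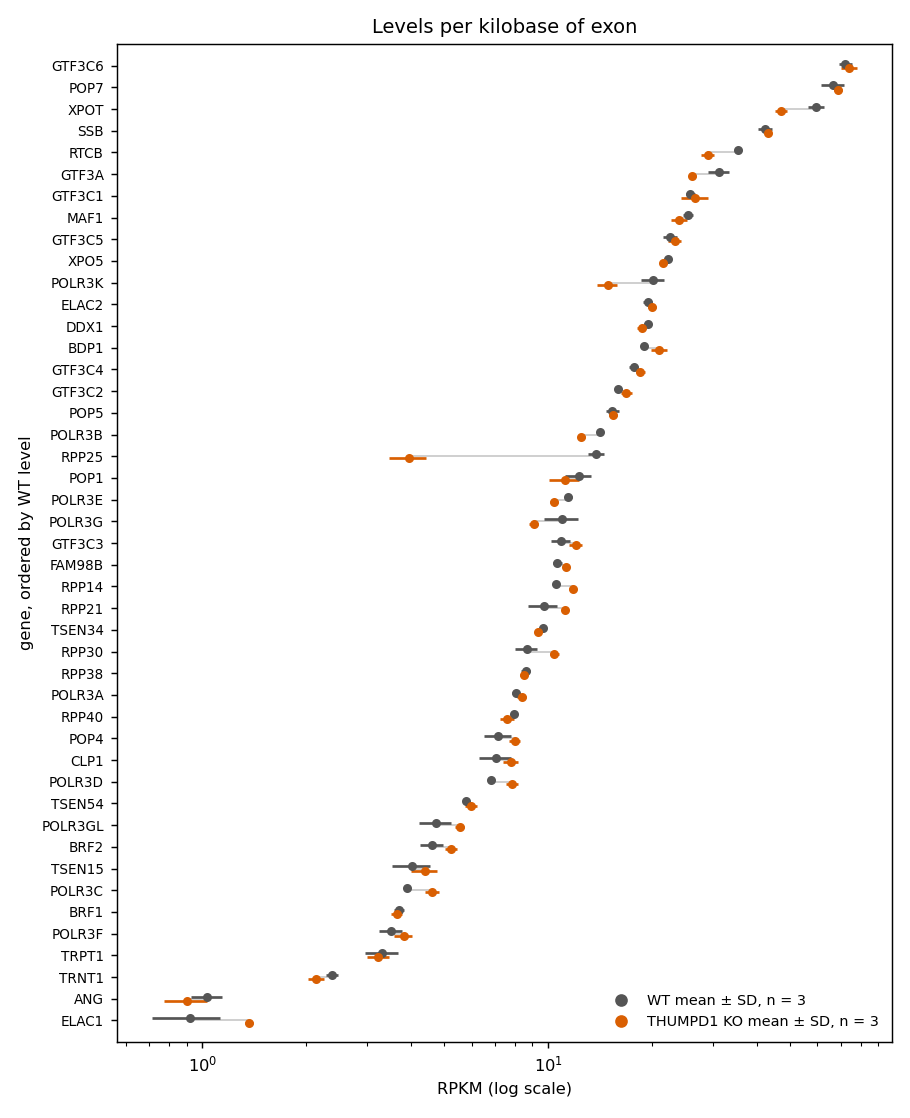
RPKM of the 45 genes on a log axis, ordered by the WT level, as mean ± SD of 3 libraries per genotype. Levels run from 0.918 RPKM (ELAC1) to 72.3 RPKM (GTF3C6) in WT. Most pairs of marks nearly coincide, and the gap is widest for RPP25 (13.8 RPKM in WT, 3.94 RPKM in KO).

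Summed over the 45 genes, the level was 3595 to 3652 CPM in WT and 3501 to 3590 CPM in KO. Of the 45 genes, 27 share exon bases with another annotated gene, 23 of these with a gene on the opposite strand and 6 with one on the same strand. Among the 8 genes called under each of the 17 alternatives, such overlaps covered at most 8.51% of the exon bases.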

How the data were processed

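RNA sequencing of 3 WT and 3 THUMPD1 KO libraries was analyzed. According to the labels and methods, the libraries were stranded, ribosome-depleted, paired-end total RNA. Reads were aligned with STAR and quantified with RSEM on GRCh38 by the authors, who deposited 1 table of expected counts per gene, not normalized. Tool versions and the strand setting are not given in the sources used here.

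Expected counts went into limma-voom (limma 3.58.1, edgeR 4.0.16, R 4.3.3) with quantile normalization, after the study's methods. Voom took them unrounded and adds 0.5 to each count before the log2 is taken. Genes that reached 1 CPM in 3 or more libraries were kept (15088). The model held genotype only, for all 6 libraries, and p values were adjusted by the Benjamini-Hochberg method over all genes tested, at a threshold of 0.05. Confidence intervals are 95%. For edgeR's quasi-likelihood test and DESeq2 1.42.0, which were alternatives, counts were rounded to whole numbers. The scripts were tested on simulated data. RPKM used the union of exons of GENCODE 44. The methods name release 46, and 99.3% of the gene IDs matched release 44, from which coordinates were taken. Permutation tests went through all 20 groupings of the 6 libraries in Python 3.11.15.

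The 45 genes and the other lists were chosen with earlier results of these data known. Values in each library are given for members called, for members whose call changed with the replicate block and for paralog pairs, and for further members where space allowed. Called genes of the other lists are named, except that some genes of these lists are not reported here. Over 11717 genes with a mean of at least 5 CPM, deviations from the group mean correlated at 0.220, 0.169 and 0.137 between libraries of the same replicate number and at −0.172 to 0.0849 otherwise, so the numbers in the labels were taken to pair the libraries. In counts, no replicates of a genotype agreed within sampling noise.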

Additional observations from a re-analysis of the deposited data

How the results depend on the processing

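RPP25, POLR3K, XPOT, RTCB, GTF3A, POLR3C, RPP30 and ELAC1 kept their direction and call under all 17 alternatives, and the scaling alternatives moved the median of all genes by at most 0.019 on the log2 scale. With the replicate block, which uses the pairing, 18 members were called, 9 of them higher, and 5 of the other pathway genes were higher. Among all genes the block called 35.1% (18.4% higher). The block together with removal of the GC content and length trend called 20 members, 10 of them higher. It called 5672 of the 15088 genes tested, 2871 of them higher and 2801 lower. Of the other pathway genes it called 2 as lower. Removal of the trend alone did so too, and it called 2226 of all genes as lower. Sample quality weights called 8 members and 2898 of all genes as higher. Without a CPM filter 5 other genes were called, 3 of them lower. That setting called 3200 of 31730 genes tested, 1627 of them lower. At an adjusted p under 0.01, 2083 genes were called (951 higher, 1132 lower), 7 members (2 higher, 5 lower) and 5 other genes (3 lower). When single libraries were left out, 2663 (without KO replicate 2) to 4245 (without WT replicate 1) of all genes were called, 1278 to 2176 higher and 1343 to 2069 lower. The same fits called 9 (without KO replicate 3) to 15 (without WT replicate 1) members, 3 to 7 higher and 5 (without WT replicate 3) to 8 lower. They called 5 to 7 other genes, 2 to 3 higher and 3 to 4 lower. The causes were not tested.

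Only uncalled genes changed sign. In the fit with genotype alone their log2 fold changes lay between −0.083 (MAF1) and 0.063 (POP7). GTF3C1 was at −0.00010 with the filter in all 6 libraries and −0.0021 without a filter. Sample quality weights gave −0.0011 for GTF3C6, −0.018 for POP5, −0.0021 for POP7, −0.029 for RPP38, −0.0021 for ELAC2 and −0.013 for SSB. TMM library sizes gave −0.015 for POP5 and −0.039 for RPP38, and library sizes alone −0.015 for RPP38. POP5 and RPP38 were at −0.019 and −0.043 by edgeR and at −0.018 and −0.042 by DESeq2. Removal of the GC content and length trend gave 0.087 for BRF1, 0.0035 for MAF1, −0.040 for SSB and 0.0037 for TRPT1, and with the block 0.086, 0.0043, −0.040 and 0.0058. When a library was left out, the range was −0.057 to 0.067 for GTF3C1, −0.035 to 0.040 for POP5, −0.015 to 0.10 for POP7, −0.033 to 0.039 for RPP38, −0.083 to 0.021 for RPP40, −0.017 to 0.026 for ELAC2 and −0.016 to 0.047 for SSB. ANG, the member nearest to the filter, rested on 40.3 to 61.3 read pairs per library.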
